A study of Mus musculus with 48 samples.

Results

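The peroxiredoxins (*Prdx1* to *Prdx6*), the superoxide dismutases (*Sod1* to *Sod3*) and catalase (*Cat*) were followed in the liver and colon of mice whose dams, and who themselves after weaning, received a diet high or low in selenium (Se) and folate. These 10 genes of 18434 named on the array were taken with all of their probes, 14 of 41174, found through the RefSeq accession that the array gives each probe. The mice were C57/BL6, aged 12 weeks, and all diets were high in fat. The first letter of a group name is the dam's diet in gestation and lactation, the second that of the offspring after weaning. In the study's methods H is a diet supplemented with Se and folate, above recommended requirements, and L one marginally deficient in both. HH mice thus received diet H throughout, LL mice diet L throughout, HL mice changed from H to L at weaning and LH mice from L to H. Liver RNA came from 5 HH mice and 6 mice each of HL, LH and LL, and colon RNA from 6 mice of each group. One HH mouse was measured on 2 liver arrays, which were averaged. Because Se and folate were lowered together, their separate contributions cannot be told apart.

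Peroxiredoxins reduce hydrogen peroxide through a reactive cysteine, and most are themselves reduced by thioredoxin. Superoxide dismutases turn superoxide into hydrogen peroxide and oxygen, and catalase, a haem enzyme of the peroxisome, splits hydrogen peroxide into water and oxygen. None of the 10 is a selenoprotein, but they share their substrates with the glutathione peroxidases, several of which carry selenocysteine, and thioredoxin reductases, which return thioredoxin to its reduced form, are selenoproteins. The liver is known for abundant catalase, since hepatocytes hold many peroxisomes.

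Each array carried the RNA of 1 mouse in Cy3 and a common reference RNA in Cy5, and all values below are log2 ratios of mouse over reference unless stated otherwise. Such a ratio compares mice for the same probe, and gives no order of abundance between genes. The reference is described in GEO's design text as prepared from a pregnant mouse with its foetus, but in the study's methods as pooled intestinal and liver RNA of the mice, so the sign of a ratio against the reference was not interpreted. Between 55.1 and 66% of spots were well above background on the 24 liver arrays, and 66.8 to 73.7% on the 24 colon arrays. The defining markers fitted the labelled tissues: all 5 hepatocyte genes measured (among them *Alb* and *Apoa1*) passed the test higher in the liver, and all 7 colon epithelium genes (among them *Krt20* and *Muc2*) and 6 smooth muscle genes higher in the colon. The study's methods give the offspring as males, but *Xist* stood apart from the other arrays of its tissue on 2 liver and 6 colon arrays (log2 Cy3 8.55 to 11.56 against 5.98 to 6.74, and 9.55 to 13.21 against 6.31 to 8.06). Of these arrays, liver HL replicate 2 (6.29) and colon HL replicate 5 (6.3), LL replicate 1 (7.37) and LL replicate 3 (6.38) were low in *Eif2s3y*, a gene of the Y chromosome. All other arrays, with or without high *Xist*, lay between 9.78 and 11.55. No count of members called below changed without the mice with high *Xist*. In the diet comparisons no member was called to begin with, so this says little about the differences below. On 9 probes chosen for 9 of the genes every array was above background, while *Sod3* was so on 21 liver and 23 colon arrays, and no member was saturated on any array.

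The main difference in these genes lay between the tissues. With the mean of the 4 diet groups compared, 7 of the 10 were called higher in the liver than in the colon, at a fold change over 1.5 and a false discovery rate (FDR) under 0.05, and none lower. Over all probes, 30.4% were called in this comparison in either direction, and of the named genes 18.6% were called higher in the liver, so that the tissues differed widely beyond these genes. At an unadjusted p under 0.05 all 10 members differed, against 71.2% of all probes. Each slide and each scan day held 1 tissue, so tissue cannot be told apart from slide and scan day. In bulk RNA, moreover, fewer cells of a type and less RNA per cell cannot be told apart.

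*Cat* differed most. Over the 23 liver mice it ranged from 1 to 2.21 with a median of 1.38, and over the 24 colon mice from -3.4 to -1.84 with a median of -2.99. The lowest liver mouse was thus well above the highest colon mouse. The difference was 4.35 ± 0.11 (SE) on the log2 scale, or 20.4-fold (adjusted p = 1.25e-34, limma). Across other ways of processing it lay between 4.06 and 4.42.

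Among the peroxiredoxins, *Prdx4*, which works in the endoplasmic reticulum, had the widest difference, at 1.99 ± 0.05 or 3.97-fold (adjusted p = 7.88e-33, limma). The liver mice lay between 0.97 and 1.73 and the colon mice between -0.88 and -0.37. *Prdx6*, which uses glutathione in place of thioredoxin, was 2.59-fold and *Prdx1*, an abundant cytosolic peroxiredoxin, 2.51-fold higher in the liver, with differences of 1.37 ± 0.08 and 1.33 ± 0.11. *Prdx5*, found in mitochondria, peroxisomes and cytosol, was 2.04-fold higher. *Prdx3*, the mitochondrial peroxiredoxin, differed by only 0.39 ± 0.06, which is under 1.5-fold, and with median centring in place of loess the sign turned (-0.09). *Prdx2*, a cytosolic peroxiredoxin best known from red cells, was the only member with the lower level in the liver, by -0.08 ± 0.03 (adjusted p = 0.0312, limma). Its mice overlapped between the tissues, from -0.78 to -0.12 in the liver and from -0.66 to -0.37 in the colon.

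The superoxide dismutases followed the same direction. *Sod1*, the copper and zinc enzyme of the cytosol, was 3.23-fold higher in the liver (1.69 ± 0.07, adjusted p = 3.85e-26, limma), with liver mice between 0.74 and 1.75 and colon mice between -0.72 and 0.01. *Sod2*, the manganese enzyme of mitochondria, was 2.1-fold higher (1.07 ± 0.07). Its liver mice, from 0.11 to 0.72, did not overlap with the colon mice, from -1.12 to -0.2. *Sod3*, the secreted enzyme of the extracellular matrix, was dim in both tissues and differed by 0.53 ± 0.05, or 1.44-fold, just under the fold change required.

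**Figure D1:**
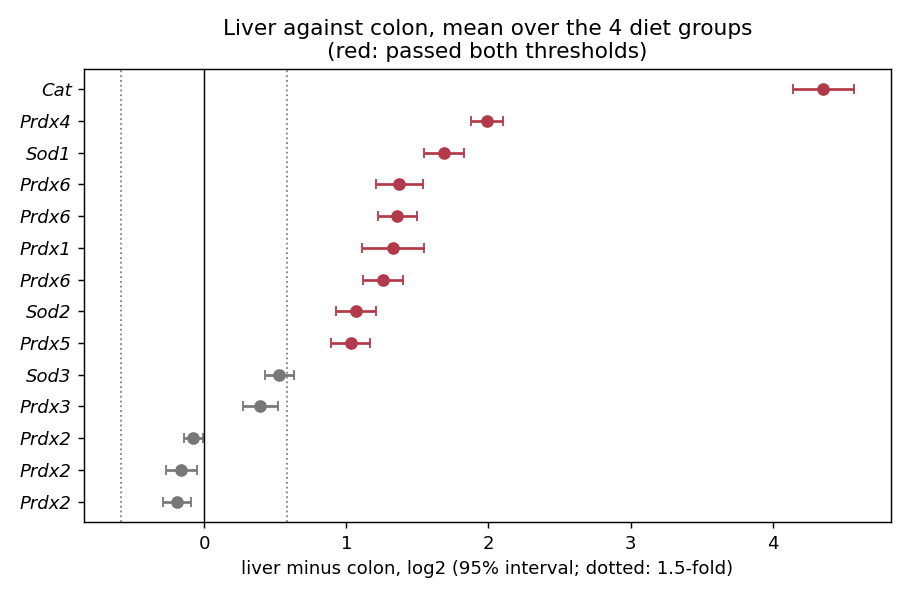
The x axis is the log2 difference of liver minus colon, averaged over the 4 diet groups, and the bars are 95% intervals, for 23 liver and 24 colon mice. *Cat* stands alone at 4.35, *Prdx4* to *Prdx5* lie between 1.99 and 1.03, and *Sod3*, *Prdx3* and *Prdx2* stay inside the dotted lines of 1.5-fold.

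*Prdx2* and *Prdx6* had 3 probes each, which allowed a check of the tissue difference on other probes of the same transcript. The other *Prdx6* probes gave 1.36 and 1.26, close to the 1.37 above, and the other *Prdx2* probes gave -0.16 and -0.19. The probes did not follow each other equally well from mouse to mouse. In the liver the deviations from the group means of the *Prdx6* probes correlated at r = 0.75 and 0.85 with those of the chosen probe over 23 mice, but in the colon at -0.25 and 0.26 over 24 mice. For *Prdx2* the values were 0.81 and 0.4 in the liver, and -0.33 and 0.68 in the colon. The main *Prdx2* probe was spotted 10 times on each array, and the SD between these spots had a median of 0.12 over 48 arrays.

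The genes around these enzymes gave a mixed picture between the tissues. Of 15 genes of the peroxisome list, 14 were called higher in the liver and none lower, with a median difference of 1.65 against 0.01 over all named genes. They included *Pxmp2*, a peroxisomal membrane channel (3.52 ± 0.09), *Scp2*, a peroxisomal lipid transfer protein and thiolase (3.45 ± 0.07), and *Acaa1b*, a thiolase of peroxisomal beta-oxidation (3.35 ± 0.07). Of 17 measured sources of superoxide and hydrogen peroxide, 10 were called higher and 5 lower in the liver, from *Uox*, urate oxidase (7.76 ± 0.07), to *Maoa*, a monoamine oxidase (-5.81 ± 0.06). In the thioredoxin list 3 of 10 were called higher and 3 lower, with *Txnrd2*, mitochondrial thioredoxin reductase, at 1.37 ± 0.07 and *Txnip*, the inhibitor of thioredoxin, at -2.71 ± 0.07. Of 13 genes of glutathione peroxidases and glutathione supply, 5 were called higher, with *Gpx1* at 2.44 ± 0.05, and 4 lower, with *Gpx2*, the gastrointestinal enzyme, at -4.27 ± 0.07. In the list of metal supply and Nrf2 control 7 of 11 were higher and 3 lower. *Ccs*, the copper chaperone that loads *Sod1*, was 1.9 ± 0.06 higher in the liver, and *Nfe2l2*, which encodes Nrf2, differed by -1.45 ± 0.09.

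The promoters of 8 of the 10 genes were found in RefSeq (GRCm38.p6), as 300 bases from 250 before the transcription start. They are shown for *Cat*, the gene with the widest tissue difference, for *Prdx2*, the gene with the narrowest, and for *Prdx1*, which holds an antioxidant response element core. Capitals mark the GC box, GGGCGG on either strand. The sequences run 5′ to 3′ on the strand of the gene, at chr2:103485104-103485403 (minus strand) for *Cat*, chr8:84969372-84969671 (plus) for *Prdx2* and chr4:116685349-116685648 (plus) for *Prdx1*.
*Cat*: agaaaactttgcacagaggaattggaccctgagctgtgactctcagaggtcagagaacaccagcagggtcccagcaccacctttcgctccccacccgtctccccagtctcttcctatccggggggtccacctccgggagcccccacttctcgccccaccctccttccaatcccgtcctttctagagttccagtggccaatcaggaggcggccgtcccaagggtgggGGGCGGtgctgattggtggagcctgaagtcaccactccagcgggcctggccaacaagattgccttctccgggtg
*Prdx2*: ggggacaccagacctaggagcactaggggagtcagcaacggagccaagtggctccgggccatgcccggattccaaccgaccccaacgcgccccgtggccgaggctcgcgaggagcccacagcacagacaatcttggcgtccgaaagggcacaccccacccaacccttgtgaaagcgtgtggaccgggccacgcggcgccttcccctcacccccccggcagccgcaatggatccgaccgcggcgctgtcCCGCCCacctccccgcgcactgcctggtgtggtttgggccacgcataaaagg
*Prdx1*: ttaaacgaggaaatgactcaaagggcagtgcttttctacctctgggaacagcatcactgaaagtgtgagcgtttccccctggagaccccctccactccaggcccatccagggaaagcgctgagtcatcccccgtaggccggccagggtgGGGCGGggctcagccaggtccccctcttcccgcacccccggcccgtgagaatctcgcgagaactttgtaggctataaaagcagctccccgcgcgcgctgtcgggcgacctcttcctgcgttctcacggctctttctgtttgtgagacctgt
All 8 promoters held a GC box, against 35.7% of 32851 promoters, and their G and C content was 57 to 68.7%, against a median of 52.7%. *Sod1* and *Sod2* held 4 GC boxes each, *Prdx4* held 3 and the others 1. The letters TGACNNNGC of the antioxidant response element core, on either strand, occurred in *Prdx1* and *Sod1*, and in 12.4% of all promoters. CCAAT occurred in *Cat*, *Sod1*, *Sod2* and *Prdx4* (37.4% of all promoters), 4 times in *Cat*, and TATAAA in *Prdx1*, *Prdx3* and *Sod1* (13.6%). No match overlapped a match of another motif. The GC box thus did not separate *Cat* from *Prdx2*, and these matches are letters in a window, not measured binding.

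The question of the study was whether low Se and folate in the diet of the dam or of the offspring altered gene expression. At the same fold change and FDR the study reported liver probes as changed, most of them in HH *vs.* LH, and none in the colon. The processing here differs, among other points in averaging the 2 arrays of an HH mouse, and the reason for the gap was not tested. Here, in none of the 6 pairwise and 3 factorial comparisons of either tissue was any of the 10 genes called. No probe was called either (0% of all probes in each of the 18 comparisons). At an unadjusted p under 0.05, 8 results in the liver and 0 in the colon remained on the chosen probe of each gene, which are read against the share of all probes below. Exact permutation tests over mice (2-sided, 60 pairwise tests in each tissue) gave p under 0.05 for 5 in the liver and 0 in the colon, unadjusted. They were run on the members only, so neither these counts nor the single permutation p values below can be read against a share of all probes. The range of the 4 group means was smaller than the SD within groups for 7 of 10 genes in the liver and for 10 of 10 in the colon. Of the 60 pairwise 95% intervals in the liver, 53 lay inside 1.5-fold in both directions, and 53 of 60 did in the colon. Intervals that reached beyond it belonged to *Cat* and *Prdx1*, so a change over 1.5-fold was not excluded for these in those comparisons, with 5 or 6 mice a group. These intervals are unadjusted, and a change under 1.5-fold could not be called for any gene.

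**Figure D2:**
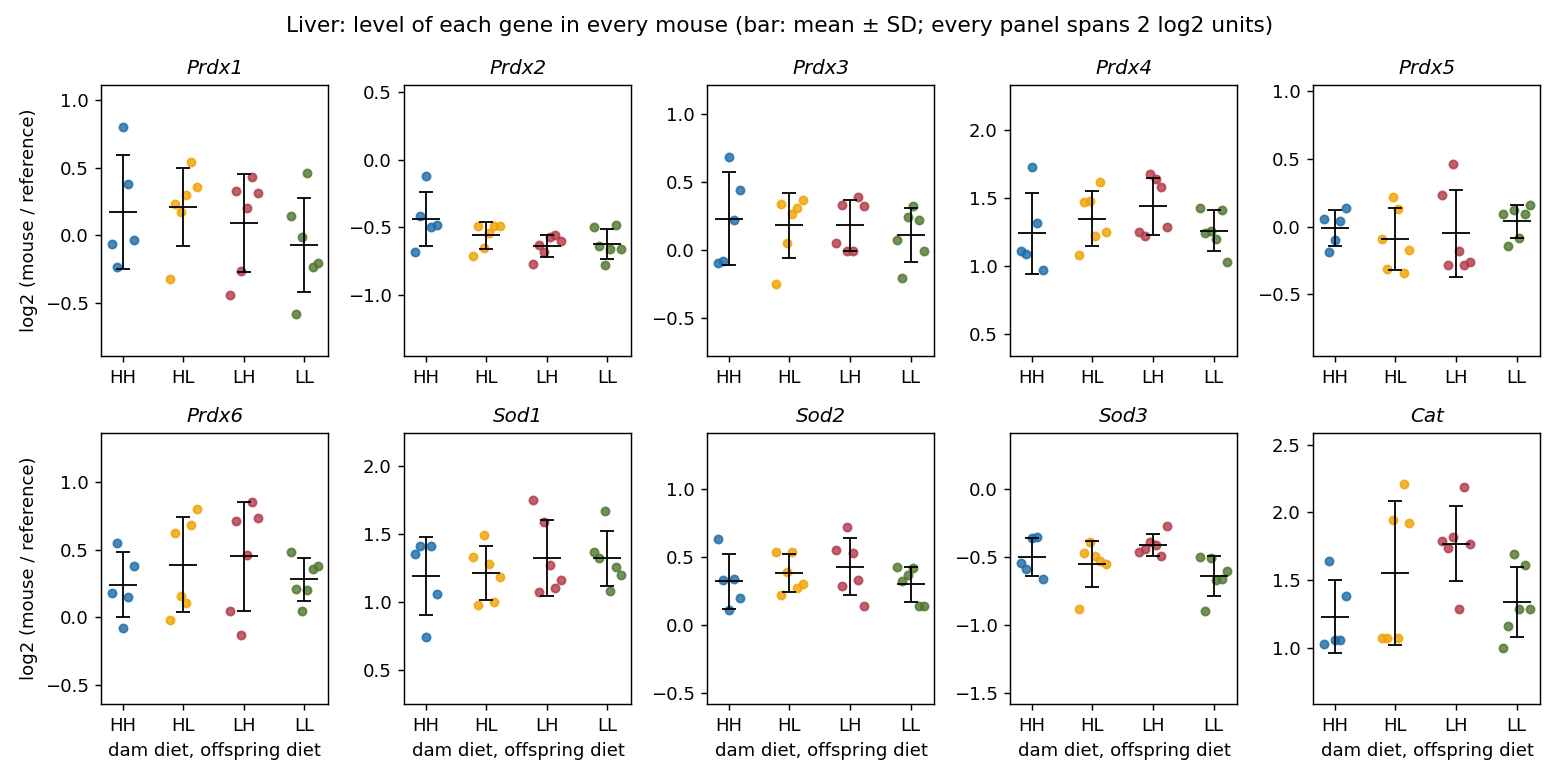
Each point is 1 liver mouse, the y axis is the log2 ratio of mouse over reference, and bars give the mean and SD of 5 HH or 6 HL, LH and LL mice. The groups of nearly every gene overlap. In *Cat* 5 of the LH mice lie at 1.74 or above and every HH mouse at 1.64 or below.

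In the liver, HH *vs.* LH compares the diets of the dam in offspring that ate diet H. LH mice also changed diet at weaning and HH mice did not, so dam diet and the change cannot be told apart in this comparison. Here 2 of 10 members had an unadjusted p under 0.05, *Cat* and *Prdx2*, against 12% of all probes. *Cat* stood at 1.03, 1.64, 1.06, 1.06 and 1.38 in the HH mice and at 1.79, 1.74, 1.82, 1.29, 2.19 and 1.77 in the LH mice. All LH mice but 1 were above all HH mice. The mean was 1.23 ± 0.27 (SD, n = 5) in HH and 1.77 ± 0.28 (SD, n = 6) in LH, a difference of 0.53 ± 0.2 (SE) or 1.45-fold (adjusted p = 0.307, limma). An exact 2-sided permutation test over these mice gave an unadjusted p of 0.0173. Within the 6 slides, each with an array of every group, LH was above HH on all 6, by 0.11 to 0.8, although 2 of these share an HH mouse. With slide as a block the difference was 0.52 ± 0.16 (adjusted p = 0.173, limma).

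The mean *Cat* levels of HL and LL fell between those of HH and LH. HL mice stood at 1.07, 1.07, 1.94, 1.07, 2.21 and 1.92, which places 3 mice with the HH mice and 3 with the LH mice, and LL mice at 1, 1.16, 1.69, 1.29, 1.61 and 1.29. Thus both groups that changed diet at weaning had the higher means, 1.77 for LH and 1.55 for HL, and both groups that kept their diet the lower ones, 1.34 for LL and 1.23 for HH. The interaction of dam and offspring diet was -0.74 ± 0.28 for *Cat* (adjusted p = 0.342, limma), and 11.4% of all probes had an unadjusted p under 0.05 in it. LL minus LH was -0.43 ± 0.19 (adjusted p = 0.768, limma), with an unadjusted p of 0.0152 in the exact permutation test. HH *vs.* HL gave 0.31 ± 0.2 (adjusted p = 0.952, limma).

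Markers of hepatocytes were higher on average in LH than in HH. The mean log2 ratio of the 5 measured genes was 1.64 in HH (1.36 to 1.86), 1.72 in HL (1.37 to 1.9), 1.9 in LH (1.7 to 2.1) and 1.78 in LL (1.67 to 1.91). All 5 genes pointed higher in LH than HH, with none at an unadjusted p under 0.05. Over 23 mice, the deviations of *Cat* from the group means correlated with those of this marker mean at r = 0.63, and with the mean of 5 lymphoid markers at -0.71 (group means 0.12 in HH and 0.02 in LH). Markers of Kupffer cells and macrophages averaged 2.15 in HH (1.31 to 2.97) and 1.72 in LH (1.27 to 2.48), with all 6 genes lower in LH and 1 of them at an unadjusted p under 0.05. Without the HH mouse measured on 2 arrays the HH mean was 1.95 and 5 of the 6 were lower. Fibroblast and stellate genes averaged -1.7 in HH and -2.01 in LH, but -1.98 in HH without that mouse, when 3 of 6 were lower in LH. Lower in LH with or without it were all 4 erythroid genes measured, 1 of which had an unadjusted p under 0.05 with all mice. For endothelial, smooth muscle, adipocyte, exocrine pancreas and colon epithelium markers 0 genes had such a p. LH replicate 4, the lowest LH mouse in *Cat* at 1.29, averaged 1.56 in the adipocyte markers. HH, HL and LL mice lay between -1.65 and -0.37 in these. Of these markers, *Plin1* and *Lep* were above background on 33.3% and 0% of liver arrays. The liver mice share slides, and the part of cell makeup in the *Cat* values was not tested.

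*Prdx2* moved the other way and by less. HH mice stood at -0.68, -0.42, -0.12, -0.5 and -0.48, and LH mice at -0.77, -0.63, -0.68, -0.57, -0.56 and -0.6. The groups overlapped. The difference was -0.2 ± 0.08 (adjusted p = 0.336, limma), or 1.14-fold lower in LH, with an unadjusted p of 0.0346 in the exact permutation test. A single HH mouse, at -0.12, carried much of it, since without that mouse the difference was -0.12 (adjusted p = 0.488, limma). This is the mouse measured on 2 arrays, and its fibroblast and stellate markers averaged -0.56 where the other HH mice lay between -2.1 and -1.84. Over all liver mice, that HH mouse included, the deviations of *Prdx2* correlated with those of these markers at r = 0.77 (n = 23). That mouse lay far out in both, and r was not computed without it, so an association across the other mice is not shown. The part of these markers in the result was not tested.

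For the remaining liver comparisons few members reached an unadjusted p under 0.05. In HH *vs.* LL there was 1 (3.45% of all probes), *Prdx2*, at -0.18 ± 0.08 (adjusted p = 1, limma). The exact permutation test gave 0.0952, and without the HH mouse above it was -0.1 (adjusted p = 0.999, limma). *Sod3* was next, at -0.14 ± 0.08 (adjusted p = 1, limma). In HH *vs.* HL there were 0 (4.37%), in HL *vs.* LL 0 (3.08%) and in HL *vs.* LH 0 (1.74%), although there the exact permutation test gave an unadjusted p of 0.0411 for *Sod3* (0.15 ± 0.08). *Prdx2*, with the second lowest p after *Cat* in HH *vs.* HL, gave -0.12 ± 0.08 (adjusted p = 0.952, limma), and -0.04 ± 0.07 without that HH mouse.

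LH *vs.* LL compares the offspring diets after a dam on diet L, and again only LH mice changed diet at weaning. It had 2 members at an unadjusted p under 0.05 (6.38%), *Cat* as above and *Sod3*. *Sod3* stood at -0.46, -0.44, -0.39, -0.41, -0.49 and -0.27 in LH mice and at -0.5, -0.9, -0.51, -0.67, -0.66 and -0.6 in LL mice. Every LL mouse was below every LH mouse, if barely, the only such separation among the members in the pairwise comparisons of either tissue. Among all probes 0.253% were separated in this way in LH *vs.* LL. The difference was -0.23 ± 0.08 or 1.17-fold (adjusted p = 0.768, limma), with an unadjusted p of 0.00216 in the exact permutation test, the smallest that 6 against 6 mice can give. *Sod3* was the dimmest member, and it was not well above background on 3 of the 24 liver arrays.

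As for the factorial contrasts of the liver, dam diet had 1 member (4.16% of all probes), *Prdx2*, with L dams below H dams by -0.13 ± 0.06 (adjusted p = 0.999, limma), and -0.09 without the HH mouse above. *Prdx1* followed with -0.18 ± 0.14 (adjusted p = 0.999, limma), and -0.1 ± 0.13 without it. Offspring diet had 1 member (1.37%), *Sod3*, at -0.14 ± 0.06 for L minus H (adjusted p = 1, limma), followed by *Prdx2* at -0.05 ± 0.06 (adjusted p = 1, limma). Without the same HH mouse *Sod3* was -0.12 ± 0.06, no longer under an unadjusted p of 0.05, and *Prdx2* was -0.01 ± 0.05. HL replicate 1, lowest of its group in *Sod3* at -0.88, stood apart in 4 exocrine pancreas markers, with a mean of 1.07 against -2.73 to -1.86 in the other liver mice. Without it the offspring diet value of *Sod3* was -0.11 ± 0.05 and that of HL *vs.* LH 0.08 ± 0.07.

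The other members were unresolved in the liver. *Prdx1* varied most within groups after *Cat*, from -0.23 to 0.8 in HH and from -0.58 to 0.46 in LL. *Prdx4* had the same order of group means as *Cat*, with 1.44 ± 0.21 in LH (SD, n = 6) and 1.24 ± 0.3 in HH (SD, n = 5), a difference of 0.2 ± 0.13 (adjusted p = 0.553, limma). The HH mouse measured on 2 arrays was the highest of its group, at 1.73, and without it the difference was 0.32 ± 0.12 (adjusted p = 0.25, limma), with an unadjusted p under 0.05. *Prdx6* also had this order, from 0.45 ± 0.4 in LH to 0.24 ± 0.24 in HH, and a second probe gave LH minus HH as 0.41 ± 0.17 (adjusted p = 0.347, limma), under an unadjusted p of 0.05. *Sod1* means lay between 1.19 and 1.32, *Sod2* between 0.3 and 0.43, *Prdx3* between 0.11 and 0.23, and *Prdx5* between -0.09 and 0.04. In each of these the range of means was smaller than the SD within groups, so that neighbours in their order did not differ beyond the spread of mice.

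**Figure D3:**
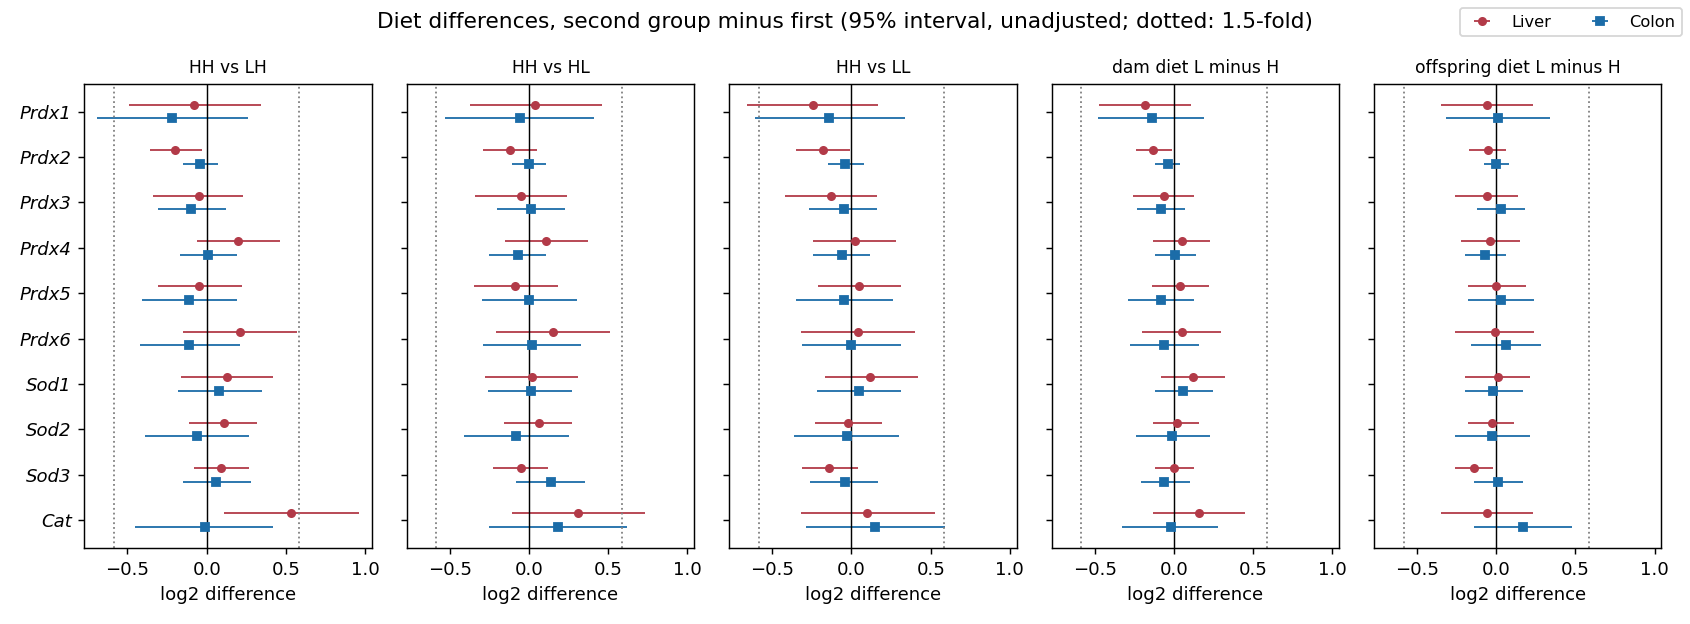
The x axis is the log2 difference of the second group minus the first (or of diet L minus diet H) for liver (circles) and colon (squares), with unadjusted 95% intervals, and dotted lines mark 1.5-fold. Liver *Cat* in HH *vs.* LH, at 0.53, is the point farthest from 0, and no gene was called.

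In the colon the 10 genes gave 0 members at an unadjusted p under 0.05 in all 9 comparisons. All probes reached it in 3.24% (HH *vs.* LH), 1.46% (HH *vs.* HL), 1.72% (HH *vs.* LL), 1.02% (HL *vs.* LL), 2.81% (LH *vs.* LL), 2.95% (HL *vs.* LH), 2.11% (dam diet), 2.03% (offspring diet) and 1.79% (interaction) of cases. The largest pairwise difference was -0.22 ± 0.23, for *Prdx1* in HH *vs.* LH (adjusted p = 1, limma), with a 95% interval of -0.69 to 0.26. By p, *Prdx3* came second in that comparison, with -0.1 ± 0.1. *Prdx1* stood at -1.12 ± 0.47 in HH and -1.34 ± 0.38 in LH (SD, n = 6 each). In HH *vs.* HL the lowest p belonged to *Sod3* (0.14 ± 0.11) and *Cat* (0.18 ± 0.21), and in HH *vs.* LL to *Cat* (0.15 ± 0.21) and *Prdx2* (-0.04 ± 0.05). Dam diet gave -0.08 ± 0.07 for *Prdx3* and -0.04 ± 0.04 for *Prdx2*, and offspring diet 0.17 ± 0.15 for *Cat* and -0.07 ± 0.06 for *Prdx4*. Every one of these had an adjusted p of 1 (limma).

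Group means of colon *Cat* ran from -2.98 in LH and -2.96 in HH to -2.81 in LL and -2.78 in HL. The higher means of HL and LL each rested on 1 mouse. HL mice stood at -3.04, -2.91, -1.84, -3.15, -2.64 and -3.1, and LL mice at -2.98, -3, -1.9, -2.55, -3.16 and -3.3. The mice at -1.84 and -1.9 were on the same slide, and the mouse at -1.9 had the high *Xist* and low *Eif2s3y* described above. Without either mouse the difference of its group from HH turned to -0.01 and -0.03. The direction of the *Cat* differences in the colon is therefore not established.

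**Figure D4:**
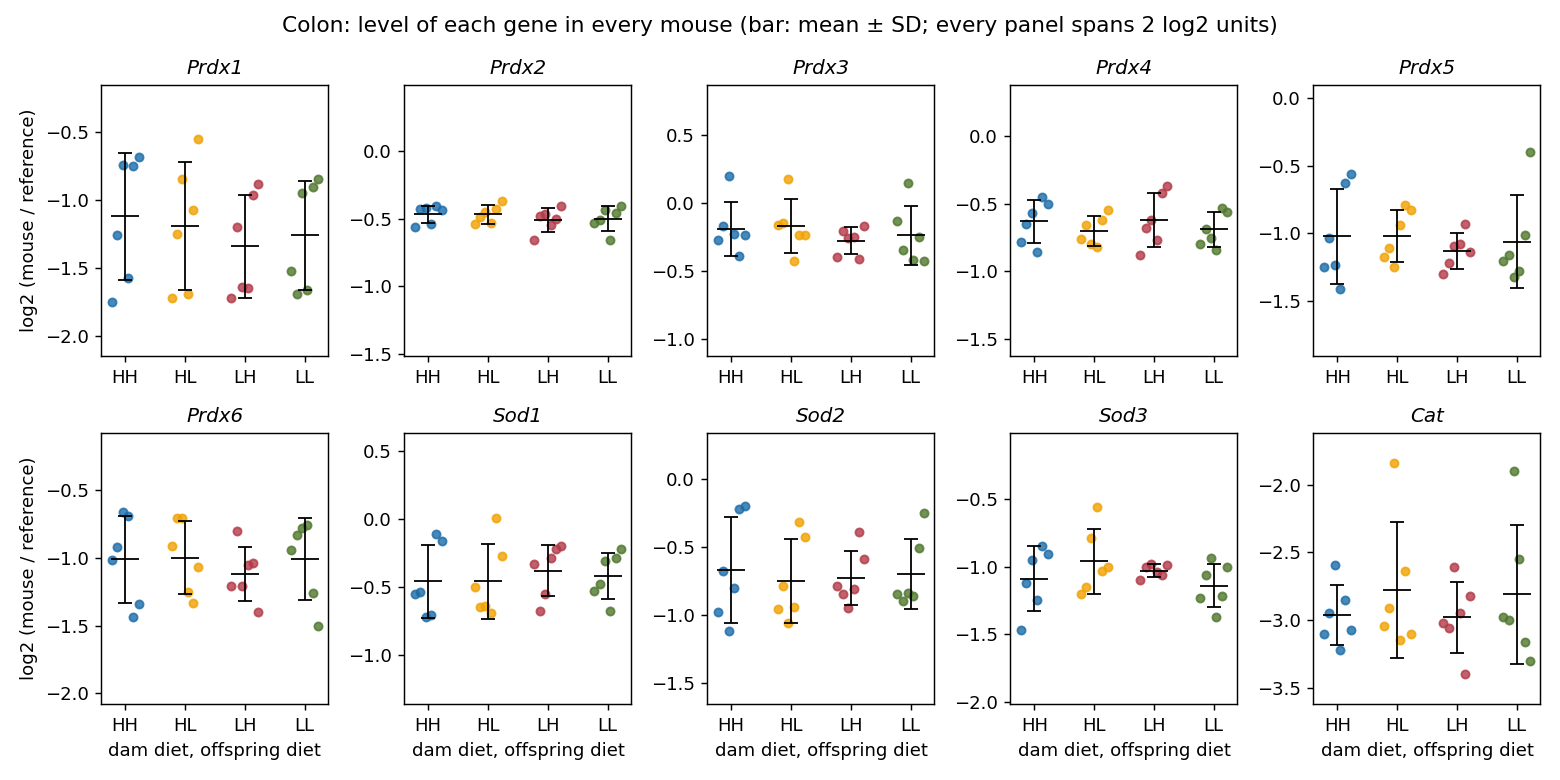
Each point is 1 colon mouse, the y axis is the log2 ratio of mouse over reference, and bars give the mean and SD of 6 mice a group. The 4 groups overlap in every gene, and *Prdx2*, from -0.66 to -0.37, has the least spread.

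Colon levels of these genes differed more between slides than between diets. Slide accounted for 78.7% of the variance of *Prdx1*, 85.7% of *Sod2*, 80.3% of *Prdx4*, 74.7% of *Prdx2* and 61.9% of *Cat* over the 24 arrays, against a median of 40.4% over 40579 probes. Of the members, 9 were above this median, all but *Sod3* (32%). *Prdx1* averaged -1.68 on slide 7 and -1.64 on slide 10, but -0.92 on slide 11 and -0.74 on slide 12. For *Sod2* slides 11 and 12, at -0.36 and -0.37, stood above the other 4, at -0.99 to -0.8. For *Cat* it was slide 9 alone, at -2.23, that stood above the other 5, at -3.07 to -2.97. Every slide carried 1 mouse of each group. Whether a slide differs through its mice or through its hybridisation cannot be told apart.

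With slide as a block, the SD that remained within groups fell from 0.43 to 0.21 for *Prdx1*, from 0.3 to 0.12 for *Sod2* and from 0.4 to 0.27 for *Cat*. Even so no member was called, and none reached an unadjusted p under 0.05 in any colon comparison. *Prdx1* in HH *vs.* LH then gave -0.22 ± 0.11 (adjusted p = 0.646, limma). In the liver the share of variance between slides was lower for 9 of the 10 members, and ran from 13.5% for *Prdx2* to 64.5% for *Prdx6* (58.8% in the colon), against a median of 28.9% over 40828 probes.

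**Figure D5:**
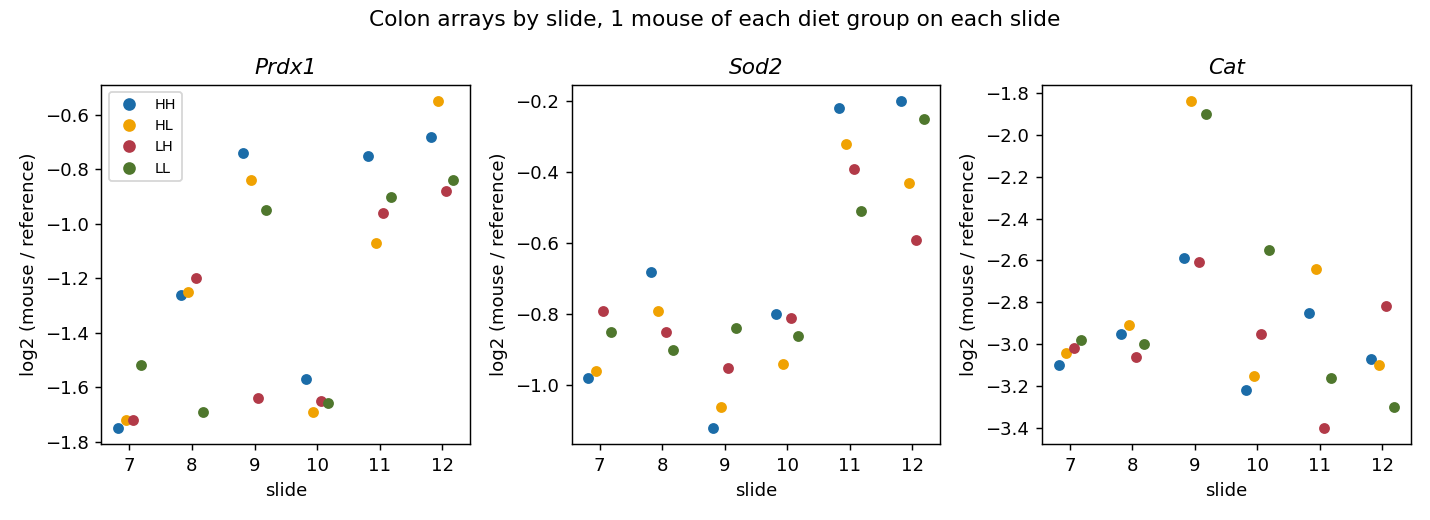
The x axis is the slide and the y axis the log2 ratio of mouse over reference of *Prdx1*, *Sod2* and *Cat* on the 24 colon arrays, 1 of each group per slide. *Prdx1* is low on slides 7 and 10, *Sod2* high on slides 11 and 12, and *Cat* high on slide 9, while the colours of the groups mix.

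The genes did not vary as a single block from mouse to mouse. Over the 45 pairs of members, the correlation of deviations from the group means ran from -0.71 to 0.79 with a median of 0.07 in the liver (23 mice) and from -0.81 to 0.85 with a median of 0.3 in the colon (24 mice). In both tissues *Prdx5* and *Prdx6* gave the lowest value. The highest were those of *Prdx1* with *Prdx3* in the liver (0.79), and of *Sod2* with *Sod1* and with *Prdx5* in the colon (0.85 each). Mice on a slide share its effect, so these values describe the arrays as much as the genes. Colon *Prdx1* correlated with the mean of 7 colon epithelium markers at r = 0.82, *Prdx2* at 0.75 and *Prdx4* at 0.7, but *Cat* at -0.01 and *Prdx6* at -0.35. The epithelium markers, too, were highest on slides 11 and 12 (0.7 and 0.68) and lowest on slides 7 and 10 (0.32 each). Colon *Cat* correlated at 0.65 with endothelial, 0.53 with adipocyte and -0.46 with smooth muscle markers. Adipocyte markers averaged highest on slide 9 (2.59), where *Cat* was high, and 1.15 to 2.47 on the other colon slides. They were nearly as high on slides 10 and 11 (2.47 and 2.34), where *Cat* was low (-2.97 and -3.01). Endothelial markers averaged highest on slide 10 (-0.49), followed by slide 9 (-0.51). The part of cell makeup in the spread was not tested.

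For the 3 members with the largest spread within groups in each tissue, the named genes with the most similar deviations were sought over all 18434. In the liver these were *Rmc1* for *Cat* (r = 0.91), *Rps3a1* for *Prdx1* (0.92) and *Pdxdc1* for *Prdx6* (0.93), over 23 mice. In the colon they were *Cdadc1* for *Prdx1* (0.97), *Josd2* for *Sod2* (0.97) and *Bnip3* for *Cat* (0.9), over 24 mice. Such values are the highest of many and are given as a description.

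The genes of the surrounding pathways were, like the members, not called in any diet comparison. In HH *vs.* LH of the liver, 1 of 13 genes of glutathione peroxidases and supply had an unadjusted p under 0.05, with a list median of -0.12 against -0.02 over all named genes. This was *Gpx4*, the selenoenzyme that reduces lipid peroxides, at -0.6 ± 0.13 (adjusted p = 0.18, limma), followed by *Gclm*, a subunit of the first enzyme of glutathione synthesis, at 0.32 ± 0.15. Of 10 thioredoxin genes 1 was higher, *Txnrd3* (0.34 ± 0.13), and 1 lower, *Srxn1*, sulfiredoxin, which repairs overoxidised peroxiredoxins (-0.42 ± 0.18), both under the unadjusted threshold alone, with a median of 0.09. Of 11 genes of metal supply and Nrf2 control 2 were lower on that threshold, *Atox1*, a copper chaperone (-0.51 ± 0.15), and *Hmox1*, haem oxygenase (-0.52 ± 0.19), with a median of -0.09. Of 17 sources of superoxide and hydrogen peroxide 1 was higher, *Ero1b*, an oxidase of the endoplasmic reticulum (0.53 ± 0.24), and 2 lower, *Cyba*, a subunit of NADPH oxidases (-0.48 ± 0.17), and *Aox1*, an aldehyde oxidase (-0.37 ± 0.14), with a median of 0.03. Of 15 peroxisome genes 2 were higher on that threshold, *Pex5*, the import receptor (0.53 ± 0.24), and *Scp2* (0.33 ± 0.16), and 2 lower, *Pex13*, a docking protein of import (-0.23 ± 0.1), and *Pex11a*, which divides peroxisomes (-0.5 ± 0.22), with a list median of 0.12. Over all named genes 13.8% had an unadjusted p under 0.05 in this comparison. In the colon 1 gene of these lists reached it in the same comparison, *Sesn1*, a sestrin, at 0.2 ± 0.09.

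The difference between the tissues in the response to diet was tested directly. No member was called for HH *vs.* LH or for dam diet (0% of all probes in each), and 0 members had an unadjusted p under 0.05 on its chosen probe (7.54% and 3.51% of all probes). For *Cat* the HH *vs.* LH difference was 0.53 in the liver and -0.01 in the colon, and liver minus colon gave 0.55 ± 0.3 (adjusted p = 0.697, limma). For *Prdx2* it was -0.15 ± 0.09 (adjusted p = 0.725, limma). For dam diet the lowest p belonged to *Prdx2* (-0.09 ± 0.06) and *Cat* (0.19 ± 0.21), both with an adjusted p of 1 (limma). Among the other probes, a second probe of *Prdx6* passed the unadjusted threshold in both, with 0.55 ± 0.2 for HH *vs.* LH (adjusted p = 0.606, limma) and 0.35 ± 0.14 for dam diet (adjusted p = 1, limma), where the chosen probe gave 0.32 ± 0.24 and 0.11 ± 0.16. A response of *Cat* particular to the liver was thus not shown.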

How the data were processed

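RNA of the liver or colon of a mouse (Cy3) was hybridised against a common reference (Cy5) on Agilent 4 × 44 k arrays without dye swap, 48 arrays on 12 slides. The authors deposited for each array the scanner intensity of every spot and its local background in both channels, not normalized, and a table of log2 values, found to be reference over mouse and matched by loess without background correction (correlation at least 0.9997 on each array). The submitters' processing notes name limma and R 3.0.2.

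Here the median intensities were corrected with normexp (offset 50), after a local background above its spot was set to the array's channel median, because a few such spots otherwise narrowed the log ratios of some arrays. Global loess, turning of the sign and averaging of unflagged spots gave 41174 probes, of which 27050 were named by accession. Of the 45018 spots 43379 were not controls, 23 of them of members. The 2 liver arrays of one HH mouse correlated in their deviations at 0.805 (other HH pairs at most 0.261) and were averaged. R 4.3.3 and limma 3.58.1 (lmFit, eBayes) were fitted per tissue on 4 groups, and on 8 groups for tissue contrasts, with Benjamini-Hochberg adjustment over all probes with at least 2 mice a group. Replicates are mice, and liver and colon mice carried different numbers in the labels. The labels name no dams or litters, so mice that share a dam could not be accounted for. The number of arrays limits precision. The model was tested on simulated data.

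Members and lists were chosen with earlier results of these data known. The naming rule took all 10 members, the probe with the highest Cy3 signal for each, and full statistics for those under an unadjusted p of 0.05 in HH *vs.* LH, HH *vs.* HL, HH *vs.* LL, dam and offspring diet, or the 2 lowest p. Of the other lists it took called genes, or the 2 lowest p of HH *vs.* LH in the liver. Other genes and the interaction were named after their values were seen. Alternatives were other background corrections, scalings, blocks, weights, filters and left-out mice. Pairwise differences of members were also tested by exact permutation over mice. Besides hepatocyte, fibroblast, colon epithelium, smooth muscle and lymphoid markers, lists of macrophage, erythroid, endothelial, adipocyte and exocrine pancreas markers were measured, and none had a gene called by diet.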

Additional observations from a re-analysis of the deposited data

Results flagged for a closer look

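In 3 of the 80 sets of mice formed by the 10 genes and 8 groups, 1 mouse lay apart from the rest of its group by a gap larger than Dixon's 95% limit, and chance gives about 1 in 20 sets. Colon *Prdx3* in HH replicate 3 was 0.2 where the next mouse was -0.17. Colon *Prdx5* in LL replicate 6 was -0.4 where the next mouse was -1.01. Liver *Sod3* in HL replicate 1 was -0.88 where the next mouse was -0.55. The same mouse averaged 1.07 in exocrine pancreas markers, against -2.73 to -1.86 in the other liver mice, and the part of these in its *Sod3* value was not tested. No tissue difference in a diet effect passed the adjusted threshold for a member.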

How the results depend on the processing

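In the recomputed counts 0 members were called for each diet comparison and tissue difference. For liver minus colon the count was 7, except 6 with median centring in place of loess and 8 with the scanner's processed signals. Of the recomputed differences of single genes, 902 kept their direction and their side of the threshold, 9 turned and 2 crossed the threshold. With median centring in place of loess, liver minus colon was 0.58 for *Prdx5*, just under the fold change required, and -0.09 for *Prdx3*, the *Prdx2* differences were 0.01 (liver, HH *vs.* HL), 0.05 (liver, offspring diet) and 0.02 (tissue difference in dam diet), and colon *Prdx4* was 0.02 for offspring diet. That setting moved the median of all probes in liver minus colon from 0.01 to 0.22. Without the background repair colon *Sod3* was -0.16 in HH *vs.* HL. With the processed signals *Sod3* was 0.08 in HH *vs.* LL of the liver and 0.65 in liver minus colon, past the threshold. The cause was not tested. Without each mouse in turn, colon *Cat* ranged from -0.01 to 0.26 in HH *vs.* HL and from -0.03 to 0.25 in HH *vs.* LL, and liver *Cat* in HH *vs.* LH from 0.45 to 0.63 (adjusted p 0.24 to 0.551, limma). Liver *Cat* lay between 0.46 and 0.63 in the other settings (adjusted p 0.128 to 0.35).

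Arrays with the same replicate number in a tissue shared a slide, but the labels do not pair their mice. Same-slide arrays correlated at a median of 0.13 in the liver (lowest -0.32) and 0.36 in the colon (lowest 0.09). With the slide as a replicate block 0 members were called in any diet comparison, liver *Cat* was 0.52 in HH *vs.* LH and -0.72 for the interaction, and with slide as a random block liver minus colon kept a count of 7. Precision was limited by 5 or 6 mice a group, and for *Sod3* by its signal near background.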
